A study of Mus musculus with 10 samples.

Results

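Of the 29766 genes measured, 9 genes of the B cell receptor and of mature B cells are described here: Cd79a, Cd79b, Blk, Cd22, Cd72, Ms4a1, Fcrla, Fam129c and Irf4. They were chosen by name from B cell biology after earlier results on the same arrays had shown B cell genes to be lower in runners, so their difference between the groups is given as a description and not as a test. Each gene was read from the 1 probe set (transcript cluster) that carries its symbol, and all 9 were measured. The samples were inner ears of CBA/CaJ mice aged 6 months with normal hearing, labelled as cochlea, the organ of hearing. In each group 5 arrays were run. The runners were housed singly with a running wheel, and the controls were housed singly without one. No allele, transgene or drug is named in the labels, both groups share the strain, age and single housing, and neither sex nor the distance run is given. CBA/CaJ mice lose hearing late in life, and the series asks about long-term voluntary running and that loss. Whether the arrays stand for separate animals is not stated in the labels, so every spread and p-value here measures differences between samples, which may be technical.

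A B cell recognises antigen with a membrane immunoglobulin that has almost no cytoplasmic part of its own. The heterodimer of Cd79a and Cd79b carries the signal inward through tyrosine motifs that Src family kinases such as Blk phosphorylate, after which Syk, Btk, Blnk and Plcg2 pass it on. Cd22 and Cd72 are inhibitory co-receptors that recruit the phosphatase Ptpn6 and damp this signal. In mice B cells are made in the marrow of bones, and the temporal bone that encloses the cochlea contains marrow. A homogenised inner ear can therefore carry marrow RNA, and in bulk tissue fewer cells of a type and less RNA per cell cannot be told apart.

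Values are log2 expression, and differences are runner minus control. The median log2 value per array over all genes lay between 5.35 and 5.43. In controls the array means of the fixed marker lists ran from 8.40 to 8.79 for neutrophils, 8.24 to 8.61 for erythroid cells, 8.75 to 8.96 for brain and 8.16 to 8.96 for skeletal muscle, and from 4.99 to 5.15 for hair cells. The hair cell genes Ocm and Slc26a5 stood at 6.19 and 4.44 in controls. The value table holds no detection calls, so presence or absence of a cell type was not decided from these levels. Runner 1 stood apart from the other runners in the neutrophil list, at 8.87 where the next runner was at 8.40, and in the macrophage list, at 7.48 against 7.07. For the members, and for many of the lists and genes below, values without it are given too.

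Promoter sequence was available from RefSeq for 6 of the 9 genes. Whether it has a part in the levels of these genes, or in their variation from array to array, was not tested. The 250 bases before the start site were searched on both strands for the octamer of Oct factors (ATGCAAAT), the core of the EBF site (CCCNNGGG), a PU.1 and ETS site (GAGGAAGT) and an E-box (CAGCTG). Capitals mark the letters that matched, and the sequences run 5′ to 3′ on the strand of the gene in RefSeq's GRCm38.p6.
Cd72, chr4:43454627-43454876, minus strand: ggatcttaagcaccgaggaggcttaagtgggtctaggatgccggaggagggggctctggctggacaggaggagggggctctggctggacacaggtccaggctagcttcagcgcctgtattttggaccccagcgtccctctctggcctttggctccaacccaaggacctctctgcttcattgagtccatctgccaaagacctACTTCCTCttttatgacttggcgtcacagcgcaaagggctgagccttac
Cd22, chr7:30879029-30879278, minus strand: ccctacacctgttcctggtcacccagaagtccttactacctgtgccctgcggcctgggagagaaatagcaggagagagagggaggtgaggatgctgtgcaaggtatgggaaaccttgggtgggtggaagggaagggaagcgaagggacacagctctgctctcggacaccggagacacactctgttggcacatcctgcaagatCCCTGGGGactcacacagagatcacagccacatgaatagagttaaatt
Fam129c, chr8:71597458-71597707, plus strand: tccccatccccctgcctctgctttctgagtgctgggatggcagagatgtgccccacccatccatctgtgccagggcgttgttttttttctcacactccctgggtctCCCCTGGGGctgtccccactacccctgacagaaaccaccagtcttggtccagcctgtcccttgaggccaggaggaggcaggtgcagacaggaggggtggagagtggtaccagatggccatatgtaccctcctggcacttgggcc

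The PU.1 and ETS letters were found in Cd72, on the other strand at -49 to -42 from the start site, and in 2.44% of all 32851 promoters of this length. The EBF core was found in Cd22 at -48 to -41 and in Fam129c, where 2 overlapping matches begin at -144 and -143, and it occurs in 11.8% of all promoters. The letters of the octamer (1.6% of all promoters) and the E-box (13.0%) were in none of the 6 windows. The windows of Cd79a, Fcrla and Irf4 held no exact match to any of the 4 motifs. Sites that differ from these letters were not searched, so a window without a match may still hold a site for these factors. A match of letters describes the window only.

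All 9 genes had lower means in runners, where 49.5% of all genes did. The differences ran from -0.32 to -0.71 log2, or 1.25-fold to 1.64-fold, with a median of -0.56 beside a median of 0.00091 over all genes. For 6 genes all 5 runners lay below all 5 controls, which held for 0.548% of all genes. No member passed at an adjusted p under 0.05 in limma, as 0.00672% of genes did (2 genes, the osteocalcin genes Bglap and Bglap2), while 9 of 9 had an unadjusted p under 0.05, beside 3.92% of all genes that were lower at that level. Because the contrast was known when the genes were chosen, nothing is read from these counts. The 9 genes held ranks 14 to 232 from the lowest difference of all 29766.

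The receptor chains came first in the order of function. Cd79b (Ig-beta) read 7.34, 7.69, 7.63, 7.71 and 7.45 in controls 1 to 5 and 7.24, 6.98, 6.68, 6.80 and 6.79 in runners 1 to 5. Every runner was below the lowest control, control 1, and runner 1 came closest, 0.096 below it. The Cd79b means were 7.56 ± 0.16 for controls against 6.90 ± 0.22 for runners (SD, n = 5 each), and they differed by -0.66 ± 0.11 (SE). Cd79a (Ig-alpha) read 6.86, 7.23, 7.01, 7.34 and 7.20 in controls 1 to 5 and 6.97, 6.99, 6.34, 6.79 and 6.46 in runners 1 to 5. The groups overlapped for Cd79a, since runners 1 and 2 lay above control 1, and 3 of 5 runners were below it. The means were 7.13 ± 0.19 and 6.71 ± 0.30 (SD, n = 5 each), a difference of -0.42 ± 0.13 (SE).

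The protein products of these chains pair with each other, and their transcripts were compared within each array. The log2 difference of Cd79b minus Cd79a within an array was 0.48, 0.46, 0.62, 0.38 and 0.25 in controls 1 to 5 and 0.27, -0.0053, 0.34, 0.011 and 0.33 in runners 1 to 5. Runners 2 and 4 lay lowest and the other 3 runners lay within the range of the controls. The group means were 0.44 ± 0.13 and 0.19 ± 0.17 (SD, n = 5 each), a description with no test.

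Blk, the Src family kinase of B cells, showed the tightest controls of the 9. It read 5.80, 5.99, 5.92, 5.97 and 5.91 in controls and 5.58, 5.67, 5.29, 5.50 and 5.43 in runners. All runners were below all controls, with a gap of 0.13 between the lowest control and runner 2, the highest runner. The difference was -0.42 ± 0.073 (SE), from a control SD of 0.073 and a runner SD of 0.15.

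Of the inhibitory co-receptors, Cd72 had separate groups and Cd22 did not. Cd72, a lectin-like co-receptor, read 6.93, 7.13, 7.13, 7.24 and 7.07 in controls and 6.79, 6.62, 6.32, 6.27 and 6.43 in runners, with no overlap. Its means of 7.10 ± 0.11 and 6.48 ± 0.22 (SD, n = 5 each) differed by -0.62 ± 0.098 (SE), so that runners averaged 65.2% of the control signal. Cd22, a sialic acid-binding lectin, read 5.47, 5.79, 5.44, 5.89 and 5.62 in controls and 5.59, 5.66, 5.10, 5.18 and 5.05 in runners. Runners 1 and 2 lay inside the range of the controls and runners 3 to 5 below it. Cd22 had the smallest difference of the members, -0.32 ± 0.13 (SE), or 80.0% of the control signal.

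Ms4a1 encodes CD20, a four-pass membrane protein of B cells and a target of therapeutic antibodies. It read 5.95, 6.59, 6.02, 6.69 and 6.12 in controls and 6.12, 6.06, 5.36, 5.62 and 5.39 in runners. Ms4a1 was the most variable member in both groups (SD 0.34 in controls and 0.36 in runners), with controls 2 and 4 high and runners 1 and 2 at the level of controls 1, 3 and 5. Its difference of -0.56 ± 0.18 (SE) had a larger SE than those of Cd72 (-0.62 ± 0.098) and Fam129c (-0.55 ± 0.093).

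Fcrla, an intracellular relative of the Fc receptors that resides in the endoplasmic reticulum of B cells, had the largest difference of the members. It read 6.08, 6.34, 6.23, 6.54 and 6.41 in controls and 5.94, 5.74, 5.45, 5.49 and 5.44 in runners. The groups did not overlap, runner 1 stood 0.41 over the average of runners 2 to 5, and the difference was -0.71 ± 0.11 (SE), or 1.64-fold. Fam129c, now named Niban3, is a gene expressed in B cells. It read 6.90, 6.99, 6.85, 7.05 and 6.86 in controls and 6.64, 6.57, 6.23, 6.21 and 6.23 in runners. Runners 3 to 5 were nearly equal, all runners were below all controls, and the gap of 0.21 between the groups was the widest of the 9. Fam129c differed by -0.55 ± 0.093 (SE).

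Irf4, a transcription factor of light chain recombination, activated B cells and plasma cells, is also known in T cells, dendritic cells and melanocytes. It read 5.76, 5.99, 6.07, 6.16 and 6.09 in controls and 5.71, 5.55, 5.33, 5.26 and 5.36 in runners. The groups did not overlap, but runner 1 came within 0.046 of control 1, the narrowest gap among the 6 genes without overlap. The difference was -0.57 ± 0.097 (SE). Of the other cells known to express Irf4, T and NK genes had a median difference of 0.033, dendritic cell genes of -0.0078 and melanocyte genes of -0.14 (-0.23 without runner 1), with 6 of 7 melanocyte genes lower. Their part in the Irf4 value was not tested.

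**Figure D1:**
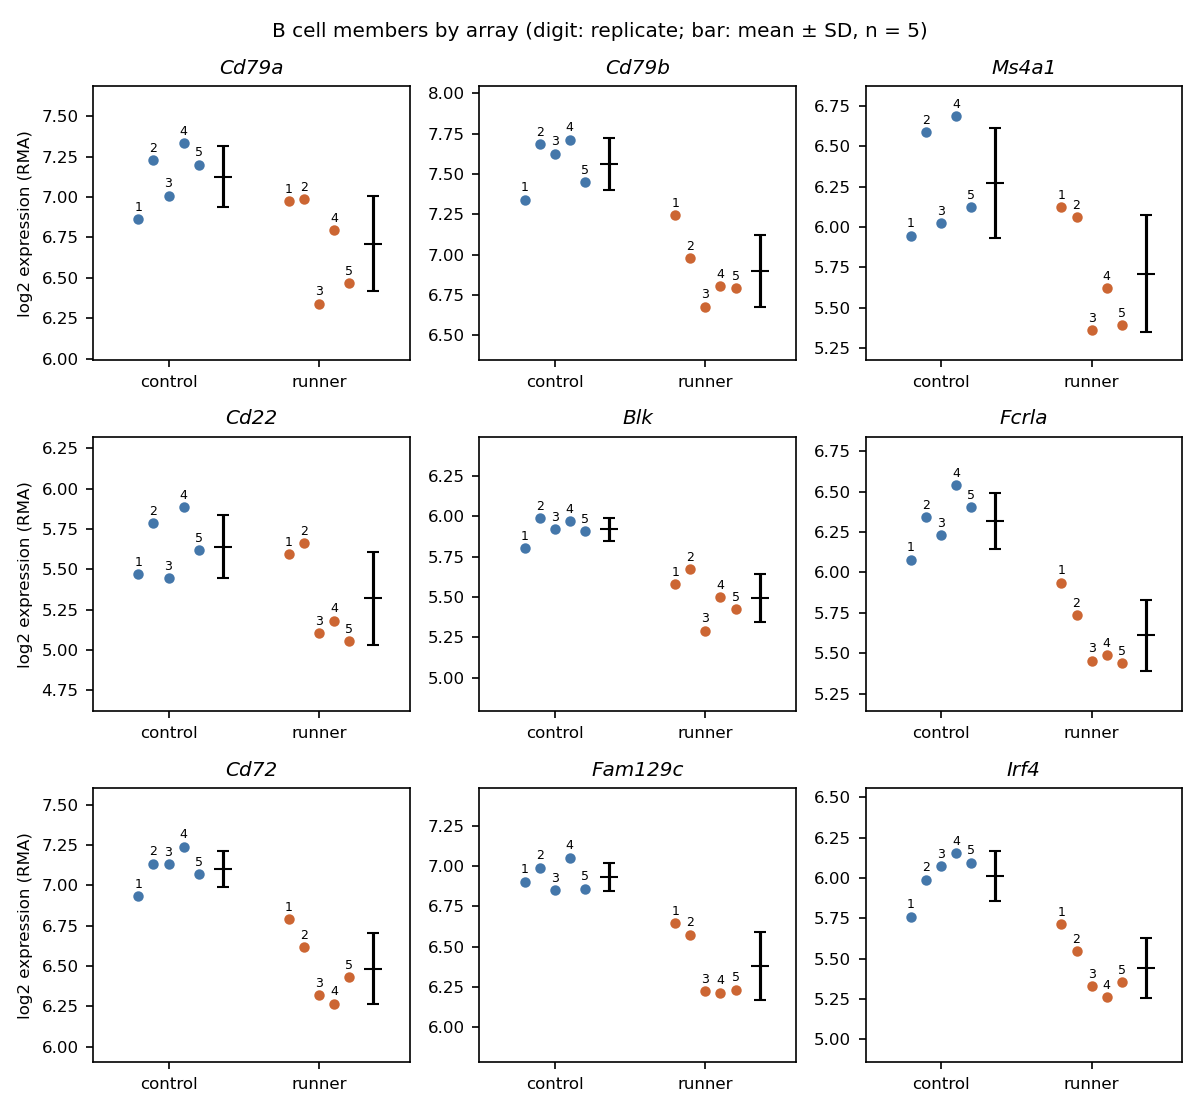
Log2 expression (RMA) of each member on the vertical axis, by group, with 1 point per array numbered by replicate and a bar for the mean ± SD (n = 5); every panel spans the same height of the log2 scale. Runners lie below all controls in 6 panels and overlap them for Cd79a, Ms4a1 and Cd22, where runners 1 and 2 reach the controls.

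The members varied together from array to array within each group. With the group means taken out, the 36 pairs of members had Pearson r between 0.66 (Blk and Irf4) and 0.96 (Ms4a1 and Cd22), with a median of 0.84 over the 10 arrays. These are descriptions, and the points share arrays and their normalization. Control 4 was the highest control for 8 of the 9 genes and control 1 the lowest for 7. Among runners the highest array was runner 1 for 6 genes and runner 2 for 3, and the lowest was runner 3 for 4, runner 4 for 3 and runner 5 for 2. The SD was larger among runners than among controls for 9 of 9 members (median 0.22 against 0.16).

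Runners 1 and 2 were both high among runners in the members, and differed in other lists. Compared with the mean of runners 2 to 5, runner 1 was higher for all 9 genes, by 0.11 (Blk) to 0.51 (Ms4a1). The mean of the neutrophil and erythroid lists was 8.69 in runner 1, the highest of all 10 arrays, and 8.27 in runner 2, within the 8.25 to 8.32 of runners 3 to 5.

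The neutrophil and erythroid lists were used for marrow. Their mean was lower on average in runners, but the values of single arrays overlapped between the groups, and the difference was not tested. It was 8.32 in control 1 and 8.55 to 8.64 in controls 2 to 5. The mean of the 9 members ran from 6.34 (control 1) to 6.73 in controls. It ran from 5.79 to 6.29 (runner 1) in runners. In runners 12 of 13 neutrophil and 8 of 8 erythroid genes were lower on average, with median differences of -0.14 and -0.23, led by Ly6g (-0.39 ± 0.12 SE) and Prtn3 (-0.24 ± 0.087) and by Car1 (-0.31 ± 0.12) and Tfrc (-0.27 ± 0.098). Without runner 1 these medians were -0.22 and -0.30, and limma called 1 gene of each list, Ly6g among the neutrophil genes. Within groups the member mean had r = 0.71 (Spearman 0.60) with the neutrophil list and r = 0.75 (Spearman 0.76) with the erythroid list over 10 arrays. Without the 2 arrays farthest from the median of each list these were 0.31 and 0.52. Such values were not particular to marrow lists: r was 0.81 for T and NK cells, 0.76 for macrophages, 0.75 for the stria vascularis and 0.71 for supporting cells. With the 2 farthest arrays of each list left out these were 0.59, 0.63, 0.62 and 0.54. The brain list went the other way, with r = -0.83 (Spearman -0.85, and -0.70 without the 2 arrays farthest from its own median). Its array means were 8.75 to 8.96 in controls and 8.65 to 9.18 in runners. Of 7 brain genes 6 were higher in runners, with a median of 0.12 (0.21 without runner 1) and 0 called in limma. The largest differences were those of Cbln3 (0.24 ± 0.15 SE) and Gabra6 (0.24 ± 0.13). The part of tissue makeup in the member differences was not tested. The covariate fit described next is a description. It covers only the mean of the neutrophil and erythroid lists, which was itself lower on average in runners, with overlap between the groups.

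**Figure D2:**
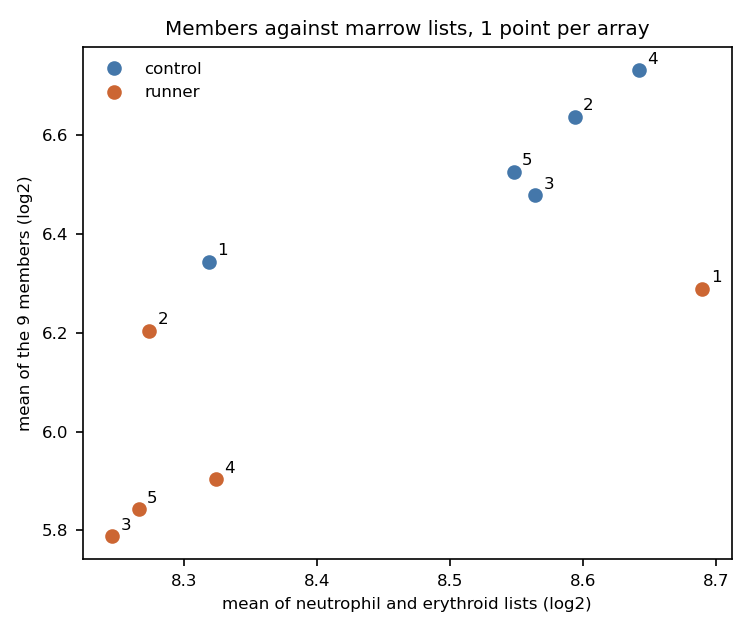
Mean log2 level of the 9 members (vertical) against the mean of the neutrophil and erythroid lists (horizontal), with 1 numbered point per array in each group. Runner 1 lies far to the right at a member mean of 6.29. Control 1, at a member mean of 6.34, lies with runners 2 to 5 on the horizontal axis. Every control is above every runner on the vertical axis.

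With that list mean as a covariate the differences were smaller but kept their sign for all 9 genes. The median member difference went from -0.56 to -0.42, and that over all genes was 0.0052. Fcrla kept -0.53 ± 0.084 (SE), Cd79b -0.48 ± 0.075, Cd72 -0.47 ± 0.082, Fam129c -0.44 ± 0.093, Irf4 -0.42 ± 0.077 and Blk -0.36 ± 0.079. The 3 genes whose groups overlapped were left with -0.30 ± 0.17 (Ms4a1), -0.24 ± 0.13 (Cd79a) and -0.17 ± 0.13 (Cd22). No member was called in this fit, where 0.00672% of genes were called lower. The differences of Cd79a, Cd22 and Ms4a1 shrank by over 1.5 times.

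Leaving out runner 1 widened every difference, to between -0.39 (Cd22) and -0.79 (Fcrla). At a limma adjusted p under 0.05, 6 members were then called lower, beside 0.185% of all genes: Cd79b, Blk, Fcrla, Cd72, Fam129c and Irf4. The same 6 were called without both runner 1 and control 1, beside 0.981% of genes, with differences from -0.48 (Blk) to -0.85 (Fcrla). They were also called when limma weighted the arrays by their quality, beside 0.0336% of genes (10 genes lower), with weights of 0.47 for runner 1 and 0.57 for runner 2, the lowest of the 10 arrays. Cd79a, Ms4a1 and Cd22 were called in none of these fits. The genes were chosen with the contrast known, and runner 1 was the highest runner for 6 members. Nothing is therefore read from these calls.

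**Figure D3:**
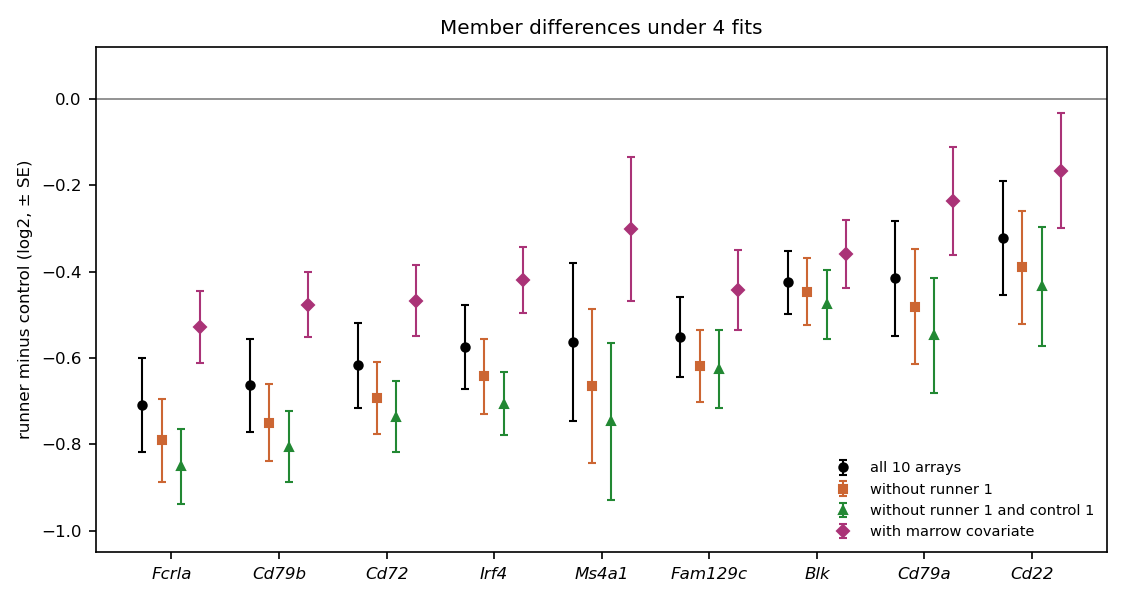
Runner minus control difference (log2, ± SE) of each member on the vertical axis, with 4 fits side by side: all 10 arrays, without runner 1, without runner 1 and control 1, and with the neutrophil and erythroid mean as a covariate. All points lie below 0, from -0.17 (Cd22 with the covariate) to -0.85 (Fcrla without both arrays).

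Of the signalling genes downstream of the receptor 18 were measured, 17 lower and 1 higher in runners. The median was -0.22, or -0.28 without runner 1. Blnk, the adaptor that assembles the signalling complex, differed by -0.52 ± 0.14 (SE), more than the members Cd79a, Blk and Cd22, Pik3ap1, which links the receptor to PI3 kinase, by -0.40 ± 0.12, and the kinases Btk and Syk by -0.33 ± 0.12 and -0.32 ± 0.13. The phospholipase Plcg2 (-0.30 ± 0.11) and the scaffold Bank1 (-0.28 ± 0.14) followed. In limma 0 of the 18 passed over all genes and 7 were lower at an unadjusted p under 0.05. Without runner 1 Pik3ap1 was called, and without runner 1 and control 1 6 genes were. Many of these genes are shared by myeloid cells. The macrophage list was lower in 12 of 12 genes (median -0.20, or -0.28 without runner 1). The part of those cells was not tested.

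Among transcription factors of B cells, Spib had the largest difference. This ETS factor stood at 6.75 ± 0.17 in controls against 6.18 ± 0.26 in runners (SD, n = 5 each), with no overlap, and differed by -0.57 ± 0.12 (SE). The coactivator Pou2af1 differed by -0.45 ± 0.14, Ikzf3 by -0.42 ± 0.13 and Pax5, the factor that fixes B cell fate, by -0.37 ± 0.12. Ikzf1 and Tcf3, which other blood cells also use, differed by -0.20 ± 0.13 and -0.20 ± 0.073. Of the 9 measured, 8 were lower (median -0.20), 5 at an unadjusted p under 0.05 and 0 after adjustment in limma, and Spib was called without runner 1, when the list median was -0.31.

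Of 11 further surface genes of mature B cells, 10 were lower (median -0.24), 6 at an unadjusted p under 0.05 and 0 after adjustment in limma. Cd180, a Toll-like receptor homologue, differed by -0.40 ± 0.12 (SE), Siglecg, an inhibitory lectin related to Cd22, by -0.34 ± 0.10, and the tetraspanin Cd37 by -0.32 ± 0.14. Tnfrsf13c, the receptor for the survival factor BAFF (-0.31 ± 0.16), Cd24a (-0.30 ± 0.10) and H2-Ob (-0.24 ± 0.10) completed the first 6. The remaining genes differed less, Cd40 by -0.19 ± 0.068, Fcer2a by -0.18 ± 0.095, Cxcr5 by -0.040 ± 0.12 and Fcrl1 by -0.027 ± 0.095. Cr2 was higher, by 0.13 ± 0.13. The array mean of this list ran from 5.65 to 5.95 in controls and from 5.37 to 5.87 in runners, so the groups overlapped. Within groups it followed the members closely, with r = 0.98 (Spearman 0.98) over the 10 arrays and 0.96 without the 2 farthest.

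Genes of earlier and later stages of the lineage were also measured. All 9 measured precursor genes were lower (median -0.27), 5 at an unadjusted p under 0.05 and 0 after adjustment in limma. Igll1, part of the surrogate light chain of precursor B cells, stood at 5.40 ± 0.35 in controls and 4.72 ± 0.30 in runners (SD, n = 5 each), a difference of -0.68 ± 0.17 (SE) and close to that of Fcrla. Vpreb3 (-0.47 ± 0.090) had no overlap between the groups. The transcription factor Myb (-0.42 ± 0.14), the terminal transferase Dntt (-0.41 ± 0.13), the interleukin 7 receptor Il7r (-0.27 ± 0.15) and Lef1 (-0.22 ± 0.10) followed. Without runner 1 the list median was -0.40 and Vpreb3 was called in limma. Without runner 1 and control 1 it was -0.47 and 4 genes were called, Igll1, Vpreb3, Myb and Dntt.

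Among 7 plasma cell genes 5 were lower and the median was -0.019, with 0 called in limma and an unadjusted p under 0.05 for 2 lower genes and 1 higher gene. Mzb1 (-0.36 ± 0.088 SE, no overlap) and Jchain (-0.26 ± 0.12), which serve antibody assembly, were lower. Xbp1, a factor of secretory cells in general, differed by 0.18 ± 0.083, and Tnfrsf17 (-0.086 ± 0.076), Sdc1 (0.028 ± 0.080) and Prdm1 (-0.019 ± 0.055) by amounts near or under their SE. Mzb1 was called without runner 1, and Mzb1 and Jchain without runner 1 and control 1. Of the immunoglobulin constant genes 4 were measured and all were lower. In limma 0 of them passed after adjustment, and 1 had an unadjusted p under 0.05. Ighm, the heavy chain of IgM, differed by -0.57 ± 0.13 (SE) and Ighg2b by -0.49 ± 0.25. Ighm was called without runner 1 (-0.68). The differences between lists were not tested.

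Lymphocyte genes outside the B lineage had differences on both sides of 0. Of 13 T and NK cell genes 9 were higher and 4 lower in runners, with a median of 0.033. In limma 0 passed after adjustment, and 1 gene, which was higher, had an unadjusted p under 0.05. Gzma differed by 0.20 ± 0.15 (SE) and Cd8a by 0.17 ± 0.073, but without runner 1 Gzma differed by 0.097 and Cd8a by 0.11, and without runner 1 and control 1 by 0.0090 and 0.10. The array mean of this list ran from 4.92 to 5.10 in controls and from 4.96 to 5.21 in runners. These means lay below the array medians over all genes (5.35 to 5.43), and RMA understates fold changes of dim genes. Dendritic cell genes were lower in 5 of 9 (Zbtb46 0.15 ± 0.10, Clec9a -0.15 ± 0.12), with 0 at an unadjusted p under 0.05 and 0 after adjustment in limma. Lower means were not confined to the B lineage, and were found in other blood lists and in cochlear lists. Megakaryocyte genes were lower in 6 of 6 (median -0.33, Ppbp -0.39 ± 0.076, Gp6 -0.37 ± 0.13) and cell cycle genes in 11 of 11 (median -0.23, Kif11 -0.33 ± 0.14, Ccnb2 -0.31 ± 0.10). Supporting cell genes of the cochlea were lower in 8 of 8 (median -0.24, Epyc -0.52 ± 0.15, Otogl -0.41 ± 0.15), hair cell genes in 9 of 10 (median -0.13) and stria vascularis genes in 5 of 7 (median -0.16). Without runner 1 the medians were -0.35 (megakaryocyte), -0.29 (cell cycle), -0.33 (supporting cell), -0.18 (hair cell) and -0.21 (stria vascularis), and Epyc differed by -0.66. In these 5 lists 0 genes were called in limma, with 6, 6, 4, 3 and 2 lower at an unadjusted p under 0.05, and 2 supporting cell genes, Epyc among them, were called without runner 1. The 7 osteoblast genes were all lower, with a median of -0.45 beside -0.56 for the members. In limma 6 of them had an unadjusted p under 0.05 and 2 were called, Bglap and Bglap2, or 4 without runner 1. All runners lay below all controls for 4 osteoblast and 3 megakaryocyte genes, which held for 0.548% of all genes. Runner 1 exceeded the average of runners 2 to 5 in every list measured except skeletal muscle and brain, most in the supporting cell list (by 0.51) and by 0.35 in the members.

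**Figure D4:**
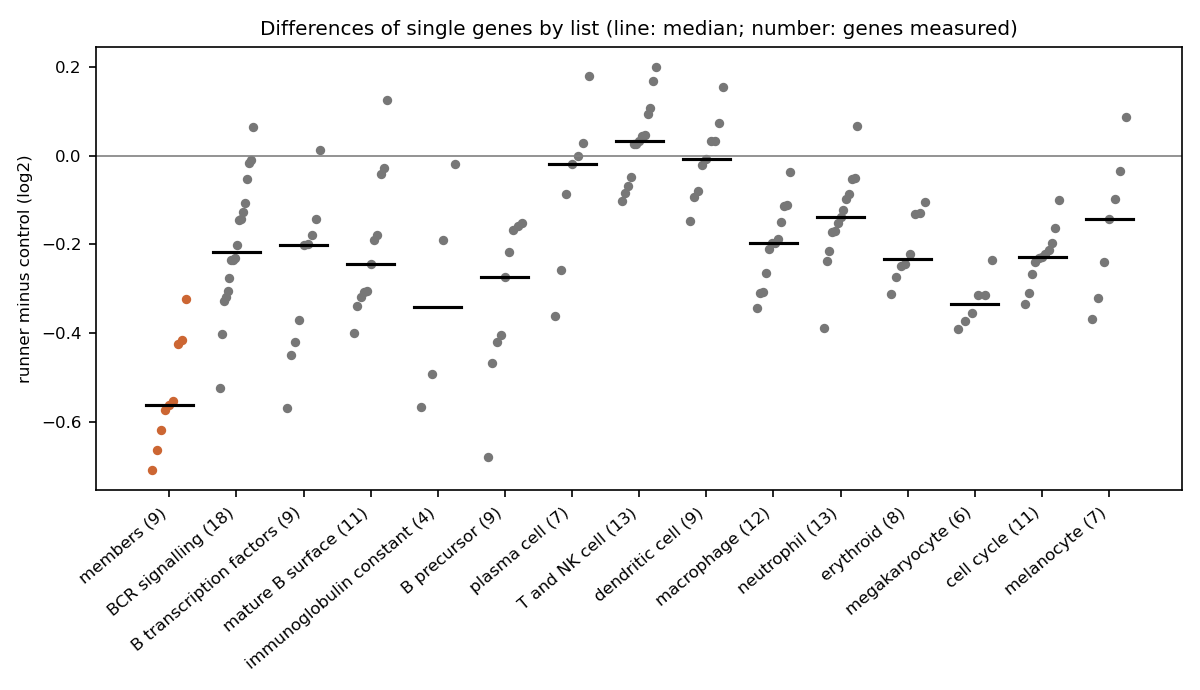
Runner minus control difference (log2) of each gene by list, with 1 point per gene, a line at the list median and the number of genes measured. The members have a median of -0.56, the B precursor list -0.27 and the BCR signalling list -0.22. The T and NK list, whose array means lay below the array medians over all genes, has a median of 0.033.

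The 10 named genes most like the member mean were ranked by Pearson r over the 10 arrays after the group means had been taken out, among 16720 genes with a mean log2 of at least 5. They were Rin3 (r = 0.99), Blnk (0.99), Rasgrp4 (0.98), Ptk2b (0.98), Tirap (0.98), Ripor2 (0.98), Tcirg1 (0.97), Dock8 (0.97), Wdfy4 (0.97) and Rbpms (0.97), with 1 immunoglobulin segment ranked among them and left unnamed. As the highest of so many genes over 10 arrays these values are high by selection. Without the 2 arrays farthest from the median of the member mean, runners 1 and 2, they lay between 0.95 and 0.98. Their differences between the groups varied: Rin3 differed by -0.023 ± 0.092 (SE), Tcirg1 by -0.086 ± 0.080 and Rasgrp4 by -0.11 ± 0.11, whereas Blnk differed by -0.52 ± 0.14 and Wdfy4 by -0.34 ± 0.12.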

How the data were processed

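Total RNA from powdered inner ear was labelled with the Affymetrix WT PLUS kit and put on 1 array per sample, per the labels' protocols. The values are log2 expression as deposited by the authors, made with RMA and Partek, per the submitters' processing notes. Chip, genome build and filters: not given in the sources used here. RMA normalizes by quantiles. Quantile normalization hides a change shared by most genes, and RMA understates fold changes of dim genes.

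The platform annotation gave 1 gene symbol to 30130 of the 39295 probe sets (15164 of them written more than once in a cell), several to 2146 and none to 7019. With 827 symbols updated by Entrez identifier, and the brightest probe set kept for 294 genes with several, 29766 genes remained. Each member had 1 probe set, and all 9 had a mean log2 of at least 5.

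Genes were fitted with limma 3.58.1 in R 4.3.3 (2 groups of 5, two-sided, Benjamini-Hochberg over all genes, threshold 0.05), checked on simulated data. Differences are runner minus control with the moderated SE. The members and lists were chosen with earlier results of these data known. The p-values of single members are therefore not printed, and their counts and calls under a threshold are descriptions only. Genes named are those with the largest differences, up to 6 in the lists of signalling, transcription factors, surface, precursor and plasma cell genes and up to 2 in others, plus any called, and the 10 genes most like the member mean (predicted genes and immunoglobulin segments left out). The remaining measured genes of the surface list are named as well. Same-numbered arrays of the groups did not deviate together in every pair (r from -0.25 to 0.28), so numbers were not used as pairs. Replicates correlated at 0.991 to 0.997 within groups. Sequences are from RefSeq (GRCm38.p6). Some genes of the lists were not analysed here. The number of arrays limits the precision.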

Additional observations from a re-analysis of the deposited data

Results flagged for a closer look

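Runner 1 lay far from the other 4 runners in 3 list means. It was at 8.87 in the neutrophil list where the next runner was at 8.40, at 7.48 in the macrophage list where the next was at 7.07, and at 7.13 in the supporting cell list where the next was at 6.71. Each gap exceeded 0.71 of the range of the 5 runners, Dixon's critical value, which by chance about 1 in 20 such groups passes, and 58 groups were examined. No member gene had an array this far from its group.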

How the results depend on the processing

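All 9 members were lower in runners under every alternative run: each array left out in turn, runner 1 and control 1 left out together, array weights, a second quantile normalization, centring on array medians, trended and robust or no moderation, a filter at a mean of 5, averaging of a gene's probe sets, the replicate block and the covariate of neutrophil and erythroid genes. The genes were chosen with this direction known, and every run reused these arrays, so their shared sign and calls are descriptions. The median member difference, -0.56, lay between -0.71 (without runner 1 and control 1) and -0.42 (with the covariate). Members called lower went from 0 to 6 without runner 1 and control 1, with array weights, and over single arrays left out ranged from 0 to 6 (6 without runner 1). Over all genes the calls went from 2 lower and 0 higher to 292 and 134 without runner 1 and control 1, to 10 and 5 with array weights and to 1 lower without moderation. With single arrays left out they ranged from 2 to 55 lower and from 0 to 44 higher, both most without runner 1. With the replicate number as a replicate block the median member difference was again -0.56 and 0 members were called. The number of arrays and their signal over background, which the value table does not give, limit these values.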
